A study of Capra hircus with 27 samples.

Results

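The genes described here were the 133 genes that ran high in both goat heart and skeletal muscle and low in lung, out of 22131 genes in the table. They were chosen by their own levels. For each of the 17670 genes that the rule could take by their ID, the mean of log2(FPKM + 1) over the 9 libraries of a tissue was taken, where FPKM is the fragment number scaled by transcript length and library size. The rule left out by name a single gene whose ID had the required form. A gene became a member when its heart and muscle means lay within 2 of each other on this log2 scale and when the smaller of the pair exceeded the lung mean by at least 3. That last difference is called the gap below, and members were ranked by it. The rule allowed up to 150 members and 133 genes met it. Differences between the tissues were thus selected on, and they are given as a description without a test. The altitude comparisons within a tissue did not enter the rule and were tested.

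Heart and skeletal muscle are both striated muscles. Their cells hold sarcomeres, the repeating units of actin and myosin filaments that shorten during contraction, and they share much of the machinery that releases and takes up calcium at each beat or twitch and that supplies ATP through mitochondria, creatine kinase and myoglobin. Lung consists mainly of epithelium, endothelium, immune cells and connective tissue, and the walls of its airways and vessels hold smooth muscle, which has no sarcomeres.

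The libraries came from goats (Capra hircus) of about 3 years of age, from Ya'an at 600 m, Zhaotong at 2000 m and A'ba at 3000 m. Heart, skeletal muscle and lung were each sequenced as bulk tissue in 3 libraries per altitude, 27 libraries in all, with no treatment. Each altitude was represented by 1 local population, so altitude and population cannot be told apart, and the study's methods describe the animals of its low and high populations as unrelated adult females. The labels do not name the skeletal muscle that was sampled, but they number the 3 libraries of a population alike in every tissue, and the study's methods describe several tissues from each animal of the low and high populations. Between heart and lung, 9 of 9 same-number pairs of libraries deviated together with r above 0.1, beside 1 of 18 pairs with different numbers. Between heart and muscle 5 of 9 did, beside 3 of 18. At 2000 m the same-number pairs of heart and muscle had r of 0.0821, 0.0185 and -0.240. The highest different-number pair there, heart 2 with muscle 3, had 0.283. At 600 m heart 2 with muscle 2 had -0.0687, while heart 1 with muscle 2 had 0.260. The numbers are thus not shown to name the same animal in muscle at 2000 m, nor for muscle replicate 2 at 600 m. Tests that set heart against muscle are also given with the number as a block for the animal. That block counts the averaged muscle sample described below as number 1. In bulk tissue, fewer cells of a type and less RNA per cell cannot be told apart.

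The depth of the libraries is unknown, since the table holds no counts. Replicates 1 and 2 of muscle at 600 m were much more alike than any other replicate pair: the robust SD of their log2 ratio was 0.0849, against 0.193 to 0.471 in the 26 other pairs, and they were averaged and counted as 1 sample in every test. Replicate 3 of that group stood apart in the other direction, and it held the lowest muscle value of 61 of the 133 members. No other muscle library held the lowest value of more than 23 members. In that library the median member stood at -0.51 relative to its mean over the muscle libraries, on the log2 scale, while the median over all genes with a mean FPKM above 0.5 was 0.13. The table does not pair its IDs with gene symbols, so the members are named by ID, and the tissue labels could not be checked against marker genes.

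The members covered a wide range of levels. Their mean FPKM ran from 8.56 to 10749 in heart (median 91.9), from 9.22 to 11765 in muscle (median 111) and from 0 to 191 in lung (median 0.867). On the log2 scale the median member stood at 6.38 in heart, 6.68 in muscle and 0.85 in lung. The rule kept only genes with similar levels in heart and muscle, so a shared set of abundant members follows largely from it. Of the 10 most abundant members in heart, 8 were also among the 10 most abundant in muscle, and 15 members exceeded 1000 FPKM in each tissue. The 5 most abundant members held 47.2% of all member FPKM in heart and 43.6% in muscle.

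**Figure D1:**
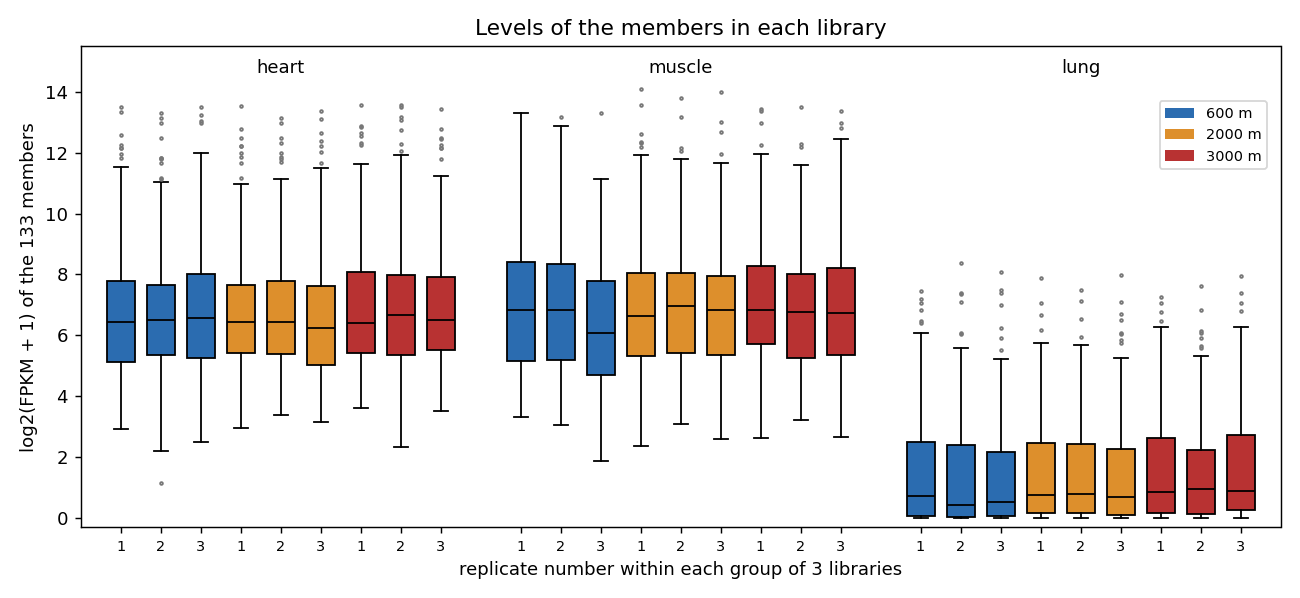
Level of the 133 members in each of the 27 libraries, as log2(FPKM + 1) on the vertical axis, with boxes for the quartiles, a line for the median and points beyond 1.5 times the box height. Library medians lay between 6.10 and 6.96 in heart and muscle and between 0.44 and 0.96 in lung, and muscle replicate 3 at 600 m had the lowest of the muscle medians.

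The member of rank 1, GOAT_ENSP00000384239, was also the member with the highest mean FPKM over heart and muscle. In heart its FPKM was 11659, 8934 and 9581 at 600 m, 11756, 8901 and 10620 at 2000 m, and 12177, 12043 and 11068 at 3000 m. In muscle it was 3431, 3751 and 2000 at 600 m, 12143, 9300 and 8279 at 2000 m, and 10484, 1909 and 7224 at 3000 m. The heart libraries of the 3 altitudes overlapped. In muscle each 2000 m library was above each 600 m library, whereas replicate 2 at 3000 m lay under every 600 m library. Its muscle change was 1.87 on the log2 scale at 2000 m (SE 0.63, limma adjusted p = 0.103) and 0.97 at 3000 m (SE 0.63, limma adjusted p = 0.38), and neither passed the threshold of 0.05.

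GOAT_ENSP00000221476, of rank 2, had the second highest mean FPKM over heart and muscle and was the most abundant member in muscle. Its FPKM was 3477 to 4826 in hearts at 600 m, 5141 to 6380 at 2000 m and 4922 to 6876 at 3000 m. In muscle it was 7427 to 10093 at 600 m, 14209 to 17374 at 2000 m and 10503 to 11495 at 3000 m. Every heart and muscle library at 2000 m or 3000 m was above every 600 m library of its tissue, but no heart or muscle change of this gene passed the test, with limma adjusted p from 0.0691 to 0.47 against 600 m.

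Within the limit that the rule set between heart and muscle, 67 members were higher in heart and 66 in muscle. Of the members, 89 had means within 1 log2 unit of each other. For 29 members the heart and muscle libraries did not overlap at all, and the share over all genes is not given beside this count. The gap to lung had a median of 4.59 and a maximum of 10.52. It was at least 4 for 87 members, at least 6 for 32, at least 8 for 7 and at least 10 for 3. Every heart library was above every lung library for all 133 members, and every muscle library was for 132. This separation from lung follows largely from the rule, which selected on the gap.

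**Figure D2:**
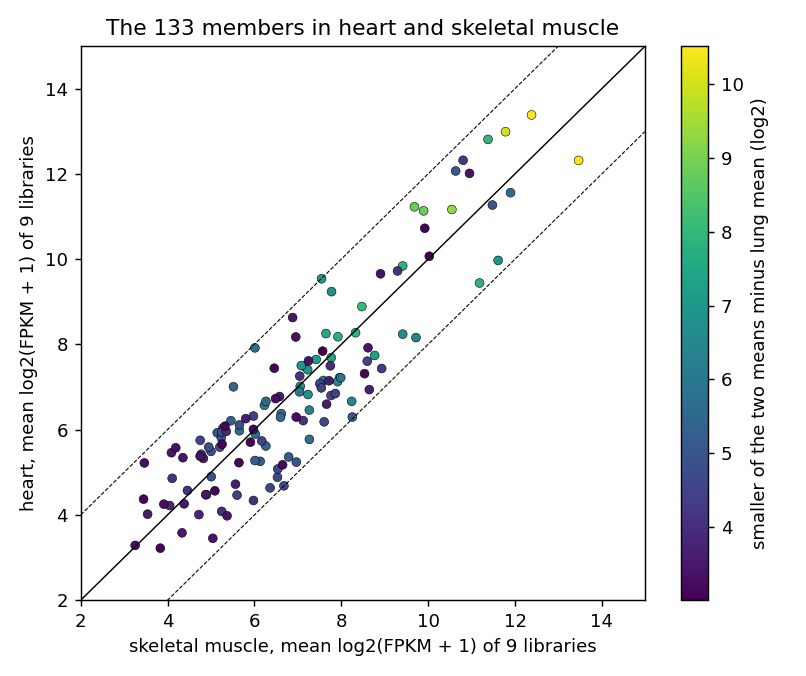
Mean log2(FPKM + 1) of each member in heart (vertical) and skeletal muscle (horizontal), each over 9 libraries, with colour for the gap to lung. The solid line marks equal means and the dashed lines the limit of 2 set by the rule, and 89 of the 133 points lie within 1 of the solid line.

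The limits of the rule ran through a continuum. GOAT_ENSBTAP00000009440 was just inside the gap limit with 3.01, at 7.84 in heart, 7.57 in muscle and 4.56 in lung. GOAT_ENSP00000366342 was just outside it with 2.996, at 2.996 in heart, 4.19 in muscle and 0 in lung. At the limit between heart and muscle, GOAT_ENSP00000351790 was kept, with 4.68 in heart and 6.68 in muscle. GOAT_ENSP00000356281, at 8.63 and 10.67, was left out, together with 22 other genes that had the gap but differed by more than 2. Of these 23 genes, 13 were higher in muscle and 10 in heart.

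The share of a library's FPKM that the members held separated muscle at 600 m from the other muscle libraries. In heart the members held 9.14% to 9.76% of all FPKM at 600 m, 9.50% to 9.86% at 2000 m and 9.36% to 10.7% at 3000 m, so the altitudes overlapped. In muscle the share was 6.51% to 7.85% at 600 m, 10.8% to 11.2% at 2000 m and 9.24% to 10.9% at 3000 m, and the 600 m libraries did not overlap with the rest. The most abundant gene of each library, over the whole table, took 22.7%, 17.2% and 8.85% of the FPKM in the 3 muscle libraries at 600 m. In the other muscle libraries it took 5.44% to 9.42%. It was taken library by library and need not be the same gene in each. The part of such a gene in the lower share was not tested. In lung the members held 0.178% to 0.246%.

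The spread between replicates was described for the members beside all genes. The median SD of log2(FPKM + 1) within groups was 0.274 for the members in heart, against 0.224 over the 12363 genes tested there. In muscle it was 0.422, against 0.279 over 11920 genes. Genes that were at least as abundant as the lowest member had medians of 0.213 in heart and 0.279 in muscle. The mean pairwise correlation of the members' deviations from their group means was 0.144 in muscle over 8 samples, beside 0.0654 over all genes tested and 0.0778 over genes as abundant as the lowest member. In heart it was 0.0341 over 9 samples, beside 0.0808 over all genes. These correlations describe shared libraries, and replicate 3 of muscle at 600 m enters each of the muscle values.

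Which members differed between the goats at 3000 m and those at 600 m was asked first in heart. With limma, 26 of the 133 members had an adjusted p of at most 0.05, 19 with more and 7 with less transcript at 3000 m. Over all 12363 genes tested, 11.1% were called, 7.38% higher and 3.75% lower. The members' median change was 0.12, beside 0.08 over all genes tested. The quartiles of the members' changes were -0.21 and 0.59, and the extremes were -1.49 and 1.39. The count was 48 without replicate 1 at 600 m, 10 without replicate 2 and 8 without replicate 3, and it was 0 without replicate 1 at 3000 m and 3 without replicate 3. The count over all genes moved as well, from 1375 to 2341, 423 and 300 without the 3 hearts at 600 m in turn, and to 14 and 312 without replicates 1 and 3 at 3000 m. In a fit of these 6 hearts alone the members' count was 7.

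The largest rise among the members called was that of GOAT_ENSBTAP00000024663. Its heart FPKM was 66.0, 75.1 and 33.3 at 600 m, 76.2, 56.0 and 77.4 at 2000 m, and 125, 187 and 132 at 3000 m. All 3 libraries at 3000 m were above the other 6 hearts. The change from 600 m to 3000 m was 1.39 (SE 0.30, limma adjusted p = 0.0242), and it passed in 10 of 14 alternative fits. In muscle the same gene was 65.1 to 110 at 600 m and 79.7 to 105 at 3000 m, and these libraries overlapped.

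GOAT_ENSBTAP00000000358 followed, with heart FPKM of 261, 152 and 185 at 600 m, 308, 239 and 252 at 2000 m and 544, 353 and 475 at 3000 m. Its change at 3000 m was 1.21 (SE 0.23, limma adjusted p = 0.0182), which passed in 9 of 14 alternative fits. This gene was more abundant in muscle, where it ran from 732 to 1090 over all 9 libraries.

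The deepest fall in heart at 3000 m was that of GOAT_ENSP00000348064. It had 218, 230 and 317 FPKM at 600 m, 103, 106 and 77.8 at 2000 m, and 61.1, 144 and 79.1 at 3000 m. The 600 m hearts did not overlap with the 6 others. Its change was -1.49 at 3000 m (SE 0.29, limma adjusted p = 0.0199) and -1.40 at 2000 m (SE 0.29, limma adjusted p = 0.0122), both against the same 600 m hearts. At 3000 m it passed in 9 of 14 alternative fits.

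GOAT_ENSP00000264735 fell as well, from 85.8, 78.5 and 86.7 FPKM at 600 m to 43.0, 42.2 and 42.3 at 2000 m and 38.5, 52.8 and 34.9 at 3000 m. The 600 m hearts stood clear of the others, and the replicates at 2000 m were nearly equal. The change was -0.996 at 3000 m (SE 0.15, limma adjusted p = 0.0133) and -0.96 at 2000 m (SE 0.15, limma adjusted p = 0.00525). It was lost in 1 of 14 alternatives at 3000 m, the fit without replicate 1 at 3000 m. In muscle it ran from 15.9 to 33.4 FPKM with overlapping altitudes.

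Between 2000 m and 600 m, 28 members were called in heart, 10 higher and 18 lower. The share called over all genes was 22.5%, with 16.3% higher and 6.18% lower. The median change of the members was -0.05, beside 0.13 over all genes. The split depended on scaling: with median-of-ratios scaling 5 members were higher and 32 lower (member median -0.21, all genes -0.01), and with quantile normalization 13 were higher and 14 lower (member median 0.13, all genes -0.02). The count was 51 without replicate 1 at 600 m, 12 without replicate 2, 3 or replicate 1 at 2000 m, and 13 without replicate 2 or 3 at 2000 m, while the count over all genes went from 2781 to between 1427 and 3284. In the fit of the compared groups alone it was 16.

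The largest rise was that of GOAT_ENSP00000348444. Its heart FPKM was 21.7, 26.2 and 17.3 at 600 m, 46.3, 68.0 and 37.3 at 2000 m, and 45.9, 46.8 and 48.6 at 3000 m. The change was 1.16 at 2000 m (SE 0.22, limma adjusted p = 0.00855) and 1.10 at 3000 m (SE 0.22, limma adjusted p = 0.0201). GOAT_ENSBTAP00000051340, one of the less abundant members, went from 10.6, 10.6 and 12.7 FPKM at 600 m to 19.1, 23.7 and 19.4 at 2000 m and 27.8, 23.0 and 26 at 3000 m. Its change was 0.82 at 2000 m (SE 0.14, limma adjusted p = 0.00612) and 1.11 at 3000 m (SE 0.14, limma adjusted p = 0.0101). For both genes every heart from the higher altitudes was above every 600 m heart, and both passed at 2000 m in 14 of 14 alternative fits.

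The deepest fall at 2000 m was that of GOAT_ENSP00000417914, with heart FPKM of 139, 319 and 474 at 600 m, 60.3, 63.0 and 57.9 at 2000 m and 106, 171 and 89.3 at 3000 m. The 600 m hearts varied widely and overlapped with those at 3000 m but not with those at 2000 m. The change was -2.17 at 2000 m (SE 0.40, limma adjusted p = 0.00767) and -1.22 at 3000 m (SE 0.40, limma adjusted p = 0.0738). In muscle the same gene had 252, 260 and 593 FPKM at 600 m and 96.6 to 268 at the higher altitudes, where its changes of -1.58 at 2000 m (limma adjusted p = 0.0792) and -1.43 at 3000 m (limma adjusted p = 0.126) did not pass. The next fall in heart was that of GOAT_ENSBTAP00000037722, which is taken up with muscle below. Both falls at 2000 m passed in 14 of 14 alternative fits.

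Hearts at 3000 m and 2000 m were not told apart. With limma 0 members were called, and over all genes 0.00809% were called. An unadjusted limma p under 0.05 was reached by 28 members. The share of all genes under that limit is not given, so nothing is read from this count. Heart libraries at 600 m lay below all 6 others without overlap for 15 members and above them for 11. The background over all genes tested was 15.4% below and 7.42% above, beside 11.3% and 8.27% of the members.

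In muscle the comparison of 3000 m with 600 m called 11 members, 7 higher and 4 lower. Over the 11920 genes tested 2.08% were called, 0.772% higher and 1.31% lower. The median change of the members was 0.43, beside -0.08 over all genes, and 92 of 133 members had a positive change. At 2000 m against 600 m 19 members were called, 13 higher and 6 lower, beside a background of 5.91% called, 1.93% higher and 3.98% lower. The median change was 0.30, beside -0.12 over all genes. The quartiles of the changes were -0.19 and 0.98 at 3000 m and -0.21 and 0.97 at 2000 m. Both comparisons use the same 600 m samples. Without replicate 3 at 600 m the members' median was 0.27 at 3000 m, with 80 members positive, and 0.17 at 2000 m, with 76 positive. Without the averaged pair at 600 m it was 0.63, with 99 positive, and 0.58, with 95 positive.

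The calls of rises depended on single libraries, replicate 3 at 600 m among them. Without that library 0 members were called higher and 4 lower at 3000 m, and 0 higher and 6 lower at 2000 m, and 3 of the 4 and 5 of the 6 original falls were among them. Over all genes the rises called went from 92 to 7 at 3000 m and from 230 to 7 at 2000 m, and all calls from 248 to 54 and from 704 to 71. That fit leaves 1 sample at 600 m, which is assumed to vary like the other groups. At 3000 m the count was 3 without replicate 1 at 3000 m and 2 without replicate 3, with 0 rises in each, 30 without replicate 2, and 30 without the averaged replicates 1 and 2 at 600 m. At 2000 m it was 4, 2 and 2 without replicates 1, 2 and 3 at 2000 m, with 1, 0 and 0 rises, and 33 without the averaged pair. With the pair kept as separate samples 24 members were called at 3000 m, 16 higher and 8 lower, and 33 at 2000 m, 24 higher and 9 lower. Without a filter on low values 1 and 3 members were called, and fits limited to the compared groups called 1 and 11.

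GOAT_ENSBTAP00000037722 had the deepest fall of the members in muscle, at both altitudes. In muscle its FPKM was 839, 828 and 1402 at 600 m, 42.6, 50.1 and 56.9 at 2000 m, and 78.4, 108 and 43.2 at 3000 m. In heart it was 126, 151 and 167 at 600 m, 48.6, 63.1 and 52.3 at 2000 m, and 79.7, 87.7 and 79.8 at 3000 m. The 600 m libraries did not overlap with the others in either tissue, and the muscle libraries at 600 m were far above the hearts at 600 m whereas at the higher altitudes both tissues had similar levels. The muscle change was -4.42 at 2000 m (SE 0.37, limma adjusted p = 0.0019) and -3.90 at 3000 m (SE 0.37, limma adjusted p = 0.0046). The heart change was -1.42 (SE 0.15, limma adjusted p = 0.00232) and -0.83 (SE 0.15, limma adjusted p = 0.0159). In muscle both passed in 14 of 14 alternative fits. The heart change passed in 14 of 14 at 2000 m and in 11 of 14 at 3000 m. In lung the gene was listed at 0 to 0.220 FPKM.

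GOAT_ENSBTAP00000043722 showed the second fall at 3000 m. Its muscle FPKM was 240, 249 and 164 at 600 m, 26.3, 26.2 and 25.5 at 2000 m, and 54.5, 51.2 and 26.6 at 3000 m. The 600 m muscles were again clear of all others. The change was -2.22 at 3000 m (SE 0.32, limma adjusted p = 0.0164), which passed in 12 of 14 alternative fits, and -2.90 at 2000 m (SE 0.32, limma adjusted p = 0.00443). In heart the FPKM was 82.9 to 97.7 at 600 m, 41.0 to 65.7 at 2000 m and 47.3 to 69.9 at 3000 m. The heart change was -0.86 at 2000 m (limma adjusted p = 0.0175) and -0.70 at 3000 m (limma adjusted p = 0.0546).

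GOAT_ENSP00000343140 had the second fall at 2000 m, with muscle FPKM of 722, 716 and 196 at 600 m, 16.2, 18.9 and 23.6 at 2000 m, and 108, 46.9 and 19.6 at 3000 m. Its muscle change was -4.21 at 2000 m (SE 0.67, limma adjusted p = 0.0184), which passed in 10 of 14 alternative fits, and -2.99 at 3000 m (SE 0.67, limma adjusted p = 0.0554). Its heart FPKM was 36.0, 90.6 and 113 at 600 m and 25.9 to 40.6 at 2000 m, and these libraries overlapped. The heart change at 2000 m was -1.15 (limma adjusted p = 0.0496).

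**Figure D3:**
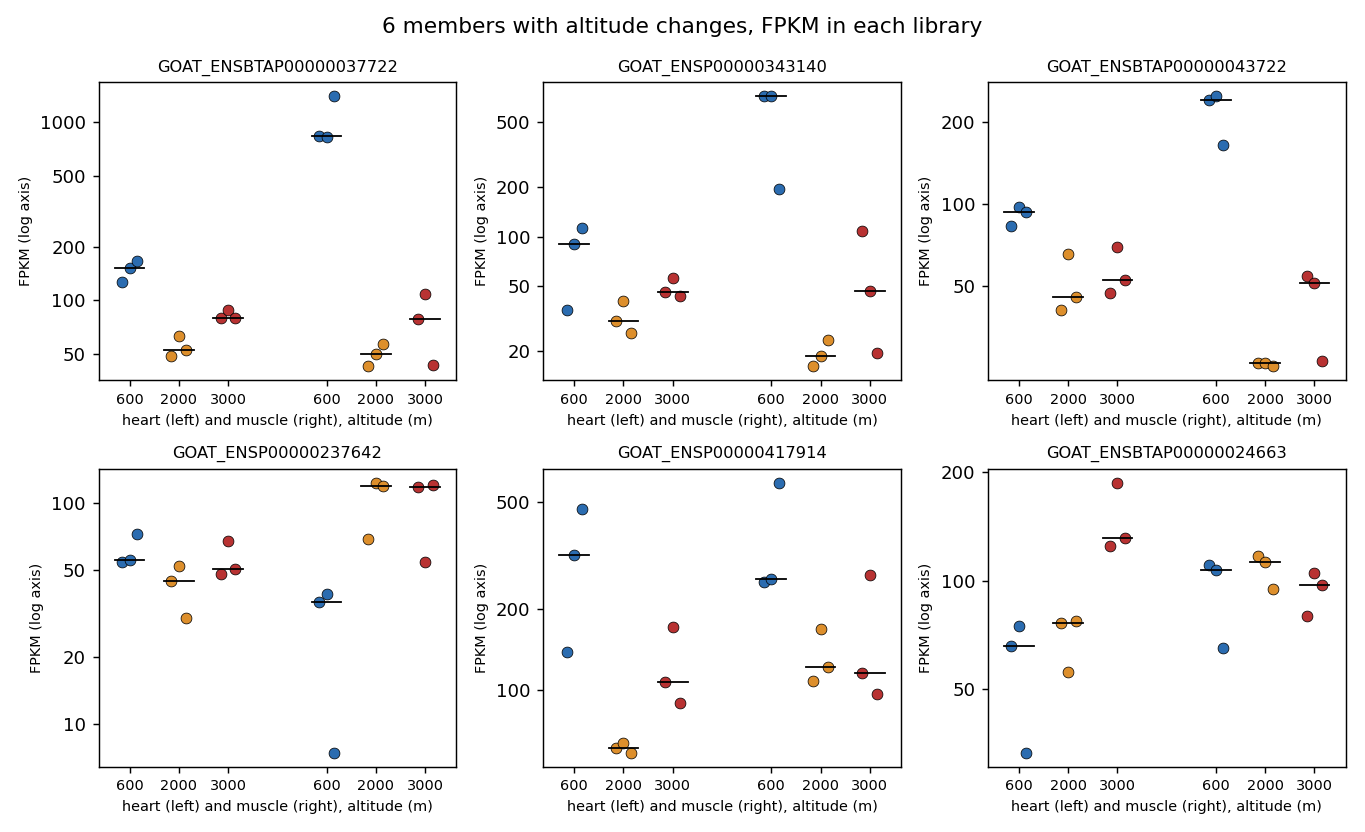
FPKM on a log axis of 6 named members in each heart and muscle library by altitude, with a line at the median of each group of 3 libraries. GOAT_ENSBTAP00000037722 lay between 828 and 1402 in muscle at 600 m and between 42.6 and 108 at the higher altitudes, while the single 600 m library of GOAT_ENSP00000237642 at 7.35 lay under all other muscle libraries.

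The named rises in muscle were of similar size to each other. GOAT_ENSP00000362071 had 23.3, 20.6 and 7.0 FPKM at 600 m, 40.1, 68.9 and 49.1 at 2000 m and 80.6, 37.7 and 90.0 at 3000 m, and rose by 2.28 at 3000 m (SE 0.49, limma adjusted p = 0.0491). GOAT_ENSBTAP00000002933-D2 had 55.6, 62.9 and 43.0 FPKM at 600 m, 161, 255 and 135 at 2000 m and 270, 166 and 298 at 3000 m, and rose by 2.21 at 3000 m (SE 0.34, limma adjusted p = 0.0222). For both genes the 600 m muscles were below all others without overlap. They passed at 3000 m in 5 and 8 of 14 alternative fits, and without replicate 3 at 600 m their changes were 1.52 and 1.98, with limma adjusted p of 0.318 and 0.148.

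At 2000 m the largest rises were those of GOAT_ENSP00000237642 and GOAT_ENSP00000256404-D2, each at 2.51. The first had 35.5, 38.7 and 7.35 FPKM at 600 m, 68.9, 124 and 120 at 2000 m, and 118, 54.2 and 120 at 3000 m (SE 0.60, limma adjusted p = 0.0428 at 2000 m). The second had 39.3, 39.0 and 11.5 FPKM at 600 m, 122, 154 and 107 at 2000 m, and 93.2, 41.4 and 94.6 at 3000 m (SE 0.50, limma adjusted p = 0.0294 at 2000 m). In both, replicate 3 at 600 m was the lowest muscle library by far, and without it the changes were 1.42 and 1.66, with limma adjusted p of 0.293 and 0.200. The IDs of 4 members end in -D and a number. If these mark further copies of a gene, reads shared between copies would make such values less certain.

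Muscles at 3000 m and 2000 m were not told apart. With limma 0 members were called, and the background was 0.00839%. Here 22 members had an unadjusted limma p under 0.05, again without the share of all genes beside it. The 600 m muscles lay below all 6 others without overlap for 39 of 133 members (29.3%), beside 8.33% of all genes tested, and above them for 10 members (7.52%), beside 14.2%. Among the 32 members with a gap of at least 6, 15 lay below without overlap and 3 above. That limit was set after the values were seen. These counts use the 3 muscle libraries at 600 m separately, and the averaged replicates enter only the filter on low values.

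Members that leaned to heart and members that leaned to muscle were also described apart. The 67 members higher in heart had a median muscle change of 0.70 at 3000 m and 0.66 at 2000 m, and the 66 members higher in muscle had medians of 0.12 and 0.04. In heart the same groups had medians of 0.10 and 0.13 at 3000 m and 0.05 and -0.08 at 2000 m. Over the 133 members the correlation between the muscle change and the heart minus muscle level was 0.209 at 3000 m and 0.156 at 2000 m. Both the split and this correlation are a description. The members share libraries, and the muscle libraries enter the level as well as the change. A low muscle value at 600 m moves a member towards the heart side and raises its muscle change. How much of the difference comes from this was not tested. The number of members that were higher in heart than in muscle was 75 at 600 m, 53 at 2000 m and 69 at 3000 m.

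The changes in heart and muscle were set side by side for each member. At 3000 m against 600 m, 67 members had positive changes in both tissues and 25 had negative changes in both, so that 69.2% shared a sign, beside 64.7% of all 11476 genes tested in both. At 2000 m 63.2% shared a sign, beside 62.8%. At 3000 m 6 members were called in both tissues, which is 23.1% of the heart calls and 54.5% of the muscle calls, and all 6 had the same direction. Of the 11476 genes 0.636% were called in both, which is 5.50% of their heart calls and 31.2% of their muscle calls, and all 73 had the same direction. At 2000 m 6 were also called in both, 21.4% of the heart calls and 31.6% of the muscle calls, and 5 of them had the same direction. The background was 2.33%, or 10.2% of the heart calls and 40.3% of the muscle calls, and 263 of the 267 genes had the same direction. The exception was GOAT_ENSP00000362935, with -0.58 in heart (limma adjusted p = 0.0327) and 1.03 in muscle (limma adjusted p = 0.0309), which is named here after its values were seen. In all, 51 of the 133 members were called at least once against 600 m in heart or muscle, and 82 were not. The background called at least once was 29.6%, so the members' share of 38.3% is read beside it.

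In all 4 comparisons with 600 m, 2 members were called, beside 0.401% of all genes, GOAT_ENSBTAP00000037722 as lower and GOAT_ENSBTAP00000018099 as higher. The latter, picked out after its values were seen, had heart FPKM of 60.7, 50.1 and 32.7 at 600 m, 84.3, 82.2 and 74.1 at 2000 m, and 111, 90.1 and 117 at 3000 m. In muscle it had 69.1, 74.2 and 45.7 FPKM at 600 m, 203, 227 and 171 at 2000 m, and 222, 158 and 286 at 3000 m. In both tissues the 600 m libraries were below all others without overlap. Its heart change was 0.78 at 2000 m (limma adjusted p = 0.0293) and 1.17 at 3000 m (limma adjusted p = 0.0164). Its muscle change was 1.78 (limma adjusted p = 0.0226) and 1.90 (limma adjusted p = 0.0222). Of 14 alternative fits, its heart call held in 7 at 2000 m and 11 at 3000 m, and its muscle call in 9 and 8. Without muscle replicate 3 at 600 m its muscle changes were 1.46 and 1.58, with limma adjusted p of 0.153 and 0.155, while for GOAT_ENSBTAP00000037722 the adjusted p was 0.00972 and 0.0198.

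**Figure D4:**
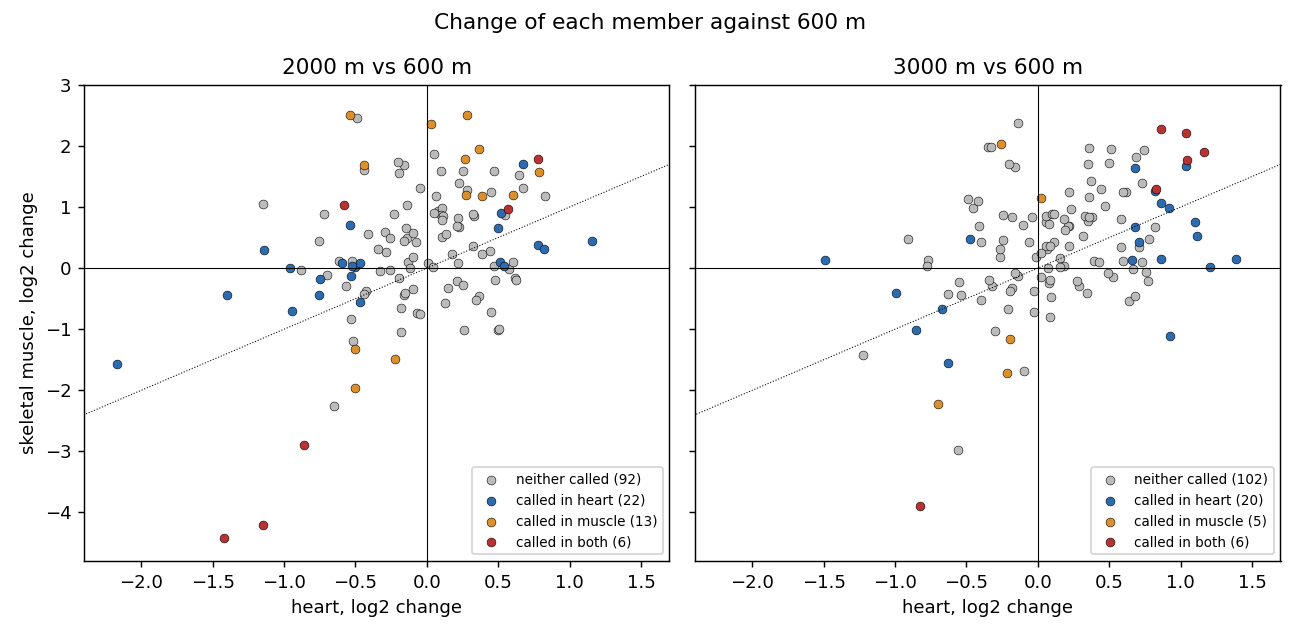
Log2 change against 600 m of each member in heart (horizontal) and skeletal muscle (vertical), at 2000 m in the left panel and 3000 m in the right panel, coloured by the tissue in which the change was called. The dotted line marks equal changes, and muscle changes reached -4.42 at 2000 m where heart changes reached -2.17.

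Whether the heart change differed from the muscle change was tested as an interaction in 1 fit over the 9 groups. At 3000 m 5 members passed, beside a background of 1.22% of the 13723 genes tested. The difference of heart minus muscle change was positive in 2 of them (background 0.925%) and negative in 3 (background 0.299%). A deeper fall in muscle also makes it positive, so the sign does not tell which tissue changed more. At 2000 m 18 members passed, beside 4.8%, with a positive difference in 4 (background 3.93%) and a negative difference in 14 (background 0.867%). The median difference of heart minus muscle change was -0.25 at 3000 m and -0.50 at 2000 m, beside 0.12 and 0.23 over all genes. It was -0.08 and -0.29 without muscle replicate 3 at 600 m, and -0.47 and -0.64 without the averaged pair. Median-of-ratios scaling gave -0.40 and -0.84, beside 0.02 and 0.00414 over all genes. With the replicate number as a random block for the animal (estimated correlation 0.140), 18 members passed at 3000 m. Their difference was positive in 7 and negative in 11. At 2000 m 27 passed, 6 positive and 21 negative, although the numbers are not shown to pair heart and muscle there. Over all genes that fit called 444 and 1222, against 168 and 659 without the block.

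The counts without the block moved with single libraries too. At 3000 m the count was 26 without replicate 2 of muscle at 3000 m and 26 without the averaged muscle pair at 600 m. It was 3 without replicate 2 of heart at 600 m, replicate 1 or 3 of heart at 3000 m, replicate 3 of muscle at 600 m or replicate 3 of muscle at 3000 m. At 2000 m it was 5 without replicate 3 of muscle at 600 m and 33 without the averaged pair, and 10, 9 and 11 without hearts 1, 2 and 3 at 2000 m and 10 without muscle 2 at 2000 m.

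GOAT_ENSBTAP00000037722 had the largest positive difference at 3000 m, 3.07 (SE 0.35, limma adjusted p = 0.000209), since its fall was deeper in muscle than in heart. It passed in 16 of 16 alternative fits. At 2000 m the largest positive difference was that of GOAT_ENSP00000343140, 3.06 (SE 0.70, limma adjusted p = 0.0187), which passed in 14 of 16. The largest negative difference at both altitudes was that of GOAT_ENSP00000237642, with -2.52 at 3000 m (SE 0.58, limma adjusted p = 0.034) and -3.05 at 2000 m (SE 0.58, limma adjusted p = 0.00788). Its heart FPKM was 53.9, 55.3 and 72.6 at 600 m, 44.6, 51.7 and 30.2 at 2000 m and 47.7, 67.1 and 50.2 at 3000 m, while its muscle values rose from the low 600 m level given above. Without replicate 3 of muscle at 600 m the differences were -1.42 (limma adjusted p = 0.297) and -1.95 (limma adjusted p = 0.0556).

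In lung 74 of the 133 members had a mean FPKM above 0.5 and entered the tests, and 3 members were listed at 0 in every lung library. The filter acts on the mean over altitudes and can keep a member for 1 high group, so counts over the 74 are a description. The 3 members of the largest gap were among the 74. GOAT_ENSP00000384239 had 1.13, 0.293 and 0.460 FPKM in lung at 600 m, 4.32, 2.89 and 2.19 at 2000 m, and 6.24, 4.84 and 8.85 at 3000 m. GOAT_ENSP00000221476 had 0.587, 0.0947 and 0.533 FPKM at 600 m, 4.58, 3.83 and 2.65 at 2000 m, and 6.50, 5.05 and 10.1 at 3000 m. GOAT_ENSP00000232975 had 0.932, 0.296 and 0.462 FPKM at 600 m, 2.66, 4.02 and 1.72 at 2000 m, and 5.42, 3.74 and 8.07 at 3000 m. In each of the 3 genes every lung from the higher altitudes was above every lung at 600 m. For the first 2 genes the lungs at 3000 m also lay above those at 2000 m, whereas those of the third overlapped.

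Against 600 m their lung changes at 3000 m were 2.23 (SE 0.28, limma adjusted p = 0.0244), 2.52 (SE 0.27, limma adjusted p = 0.0203) and 2.08 (SE 0.30, limma adjusted p = 0.04), in the order above. The corresponding values at 2000 m were 1.35 (limma adjusted p = 0.0413), 1.74 (limma adjusted p = 0.0358) and 1.26 (limma adjusted p = 0.0484). These 3 genes are singled out after their values were seen. At 3000 m they passed in 9, 10 and 8 of 14 alternative fits, and at 2000 m in 6, 8 and 4. Their lung values stayed far under those in heart, at 0.00181% to 0.0114% of the mean heart FPKM at 600 m, 0.0204% to 0.0878% at 2000 m and 0.0451% to 0.194% at 3000 m. How these low lung values arose was not tested.

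**Figure D5:**
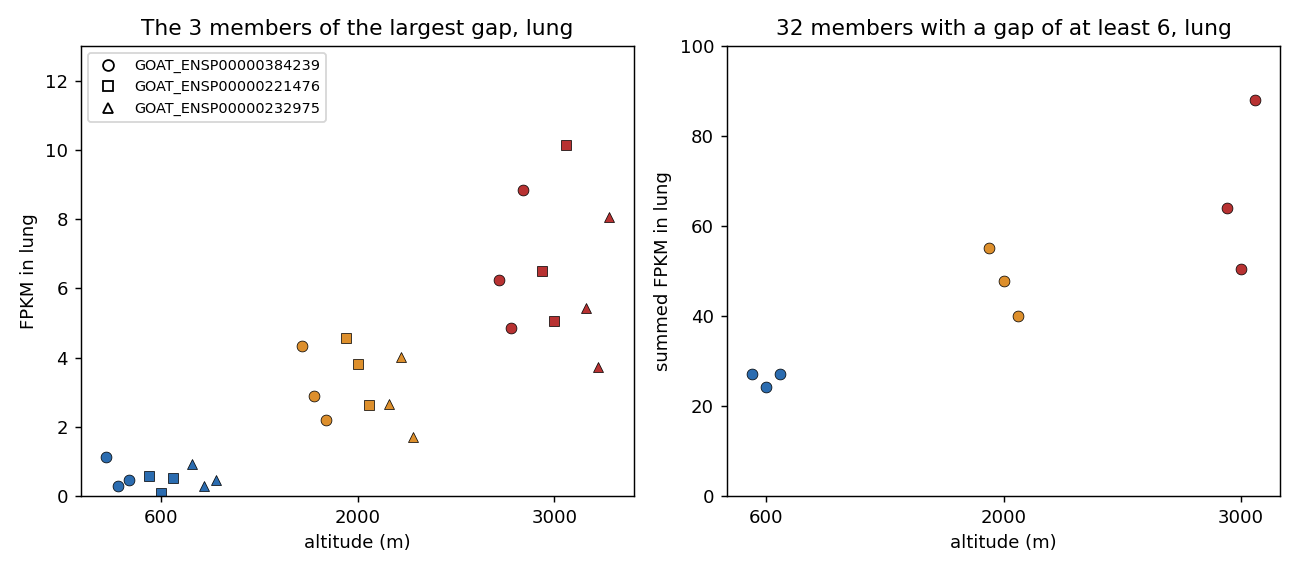
FPKM in lung of the 3 members with the largest gap (left, 1 point per library and gene) and summed lung FPKM of the 32 members with a gap of at least 6 (right, 1 point per library), by altitude. The summed values were 24.2 to 27.2 at 600 m, 39.97 to 55.1 at 2000 m and 50.5 to 88.1 at 3000 m. The limit of 6 was set after the values were seen. Over all 133 members the summed lung FPKM was 1172 to 1346 at 600 m and 988 to 1172 at 2000 m. At 3000 m it was 1000 to 1358, which overlapped with both.

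Lung called 6 members at 3000 m against 600 m, 5 higher and 1 lower, beside 2.84% of the 13965 genes tested, 0.73% higher and 2.11% lower. The median change of the 74 members was 0.24, beside -0.08 over all genes. The calls and this median are a description, since the filter can keep a member for its high group. GOAT_ENSP00000287490, among the 5 higher, had 0.666, 0 and 0 FPKM in lung at 600 m. With no filter on low values the members' median was 0.12, and without replicate 3 at 3000 m it was 0.145. At 2000 m 4 members were called, 3 higher and 1 lower, beside 5.1% of all genes, 2.22% higher and 2.88% lower.

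The lung calls moved with single libraries. At 3000 m the count was 0 without replicate 2 or 3 at 600 m, 2 without replicate 1 at 3000 m and 1 without replicate 3 at 3000 m. At 2000 m it was 10 without replicate 1 at 600 m and 0 without any other library of the comparison. Between 3000 m and 2000 m limma called 0 members and 0% of all genes. Of the members 13 had an unadjusted limma p under 0.05, and the share of all genes is not given beside it. The 600 m lungs lay below all others without overlap for 10 of the 74 members (13.5%), beside 6.87% of all genes, and above for 2, beside 13.7%. The number of the 133 members above 0.5 FPKM was 61 to 70 in lungs at 600 m, 69 to 74 at 2000 m and 76 to 80 at 3000 m. The share of all genes above 0.5 FPKM is not given beside it. Whether the difference is particular to the members was not tested.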

How the data were processed

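RNA of 27 goat tissue samples was sequenced from strand-specific libraries. Reads were mapped by the authors with TopHat 2.0.11 (goat genome CHIR_1.0), and Cufflinks 2.2.1 gave FPKM. The methods describe this for the 600 m and 3000 m animals only. The deposited values are log2(FPKM + 1) per gene and library without a filter, since 3602 genes were at 0 everywhere. FPKM was recovered from them. No counts were used, so depth and its precision are unknown, and the number of libraries limits the precision.

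The members and lists were chosen with earlier results of these data known. The available name table held 0 of the 22131 IDs, so planned lists of markers and pathways were left out. The study used Cuffdiff, and limma 3.58.1 in R 4.3.3 takes its place here (lmFit, then eBayes with trend, on the deposited scale, genes averaging over 0.5 FPKM in the tissue, all 3 altitudes of a tissue in 1 fit, two-sided, Benjamini-Hochberg over all genes tested, threshold 0.05). It was tested on simulated data. Fold changes on this scale understate low genes. Nothing says that the samples of a group came from separate animals except the methods for 600 m and 3000 m, so p-values otherwise measure the spread between samples. In each comparison against 600 m, the 2 largest rises and 2 largest falls among called members of heart and muscle were named, with the interaction's extremes, rank 1, the 2 highest members and those at the limits. Alternatives were another pseudocount (0.1), filters, scalings, sample sets, eBayes without trend, a replicate block and leaving out samples. Python 3.11.15 and matplotlib 3.10.9 drew the figures.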

Additional observations from a re-analysis of the deposited data

Results flagged for a closer look

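For 5 members at 3000 m and 18 at 2000 m the change against 600 m in heart differed from that in muscle by the limma interaction test. Among them, GOAT_ENSBTAP00000037722 had a difference of 3.07 (heart minus muscle, log2) at 3000 m. GOAT_ENSP00000237642 had -2.52 at 3000 m and -3.05 at 2000 m, and its muscle call at 2000 m was lost without replicate 3 at 600 m. GOAT_ENSP00000343140 had 3.06 at 2000 m. Groups of 3 libraries are too small for a test of outlying samples.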

How the results depend on the processing

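Leaving out 1 sample at a time moved the counts of members called against 600 m over these ranges: heart 0 to 48 at 3000 m and 12 to 51 at 2000 m, muscle 2 to 30 and 2 to 33, lung 0 to 9 and 0 to 10, and the heart minus muscle difference 3 to 26 and 5 to 33. Between 3000 m and 2000 m the counts stayed at 0 to 0 in heart, muscle and lung. In fits limited to the compared groups, heart gave 7 and 16, muscle 1 and 11 and lung 0 and 1, in the same order of altitudes. Heart and muscle alone gave 1 and 7 interaction calls. Without a filter on low values muscle gave 1 and 3, and lung gave 1 at 2000 m. The replicate number as a block gave 4 in muscle at 3000 m and 0 in lung at 3000 m and 2000 m, and the animal as a random block gave 18 interaction calls at 3000 m. Across altitudes the numbers named different animals (27 same-number pairs, r from -0.20 to 0.28, 2 above 0.1). Across tissues of a population r ran from 0.147 to 0.450 in the 9 same-number pairs of heart and lung. It ran from -0.24 to 0.30 in those of heart and muscle. There the numbers are not shown to pair the tissues at 2000 m, nor for muscle replicate 2 at 600 m. The interaction is therefore given with and without the animal as a block. With the averaged muscle pair kept apart, muscle gave 24 and 33 and the interaction 12 at 3000 m. Quantile normalization gave 3 in lung at 3000 m, median-of-ratios scaling 10 interaction calls at 3000 m, and a pseudocount of 0.1 gave 3 and 9 interaction calls. No named change turned its direction, while 101 of 372 values of named changes under an alternative lost their call. The members' median change turned its sign in heart at 2000 m under 3 of 14 alternatives and in no other comparison. With the median of 9 libraries in the rule 124 members were kept, and with median-of-ratios scaling 127. The cause of these differences was not tested.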

Other observations

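The 23 genes that had the gap to lung but were more than 2 apart between heart and muscle reached far larger tissue differences than the members. The gene furthest to the heart side, GOAT_ENSBTAP00000011047-D2, stood at 12.05 in heart, 4.996 in muscle and 1.28 in lung on the log2 scale. The gene furthest to the muscle side, GOAT_ENSBTAP00000014486, stood at 6.49 in heart, 11.26 in muscle and 3.03 in lung. Both were named after their values were seen. At the other end, 17 members kept a mean lung level above 10 FPKM and 4 kept one above 100, of which the highest was 191 FPKM.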
